A study of Mus musculus with 37 samples.

Results

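The 42 genes described here encode the core machinery of macroautophagy. They were selected by gene symbol from 57180 gene rows, with earlier results of these data known. They comprise initiation factors, lipid kinase subunits, membrane suppliers, conjugation enzymes, proteases, ATG8 proteins, cargo and mitophagy receptors and 1 tether. All 42 passed the filter on low counts and were tested in every comparison. Ribosome-bound RNA was sequenced from the ventral midbrain of NuTRAP mice, in which Cre removes a floxed stop sequence at the Rosa26 locus so that the ribosomal protein L10a is made fused to EGFP and tagged polysomes can be pulled down with an antibody to GFP. In DAT;NuTRAP mice Cre was driven from Slc6a3, which encodes the dopamine transporter, and in VGAT;NuTRAP mice from Slc32a1, which encodes the vesicular GABA transporter (a C57BL/6J knock-in line). In both models cre/cre males had been crossed with NuTRAP Flox/Flox females. The DAT;NuTRAP libraries came from 9 old mice (4 females and 5 males, aged 21 months) and 10 young mice (5 females and 5 males, 8 to 10.5 months). The VGAT;NuTRAP libraries came from 8 old mice (5 females and 3 males, 21 months with 1 female of 24 months) and 10 young mice (6 females and 4 males, 7 to 9 months). Mice aged without treatment, each gave 1 library, and every mouse carried both Cre and the NuTRAP allele, so that no library was without a tag. The VGAT promoter marks GABA neurons of several kinds in this region.

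Macroautophagy encloses cytoplasm in a double membrane and delivers it to the lysosome. The ULK kinase complex starts the process, a class III phosphatidylinositol 3-kinase complex marks the membrane, ATG9 and ATG2 supply lipid to it, and a pair of ubiquitin-like conjugation systems attach ATG8 proteins, on which receptors dock their cargo. Neurons do not divide and depend on this pathway to clear damaged mitochondria and protein aggregates, and in mice the loss of Atg7 from dopamine neurons leads to their degeneration. The pulldown measures RNA on ribosomes and not protein, autophagosomes or flux.

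Promoter windows are shown for 3 members that differed between young cell types. They are the ATG8 paralogs Gabarapl2 and Map1lc3b, which went in opposite directions, and the kinase gene Ulk1, which was lower in DAT;NuTRAP libraries. Their RefSeq starts lay 13, 77 and 48 bases inside the annotated start of the gene, by a match of each window to GRCm39. Each window holds the 300 bases from 250 before to 50 after that RefSeq start on the gene's own strand, at (build GRCm38.p6) chr8:111940453-111940752 for Gabarapl2 (plus strand), chr8:121590188-121590487 for Map1lc3b (plus strand) and chr5:110810032-110810331 for Ulk1 (minus strand). Capitals mark the GC box GGGCGG or its reverse complement CCGCCC.
Gabarapl2: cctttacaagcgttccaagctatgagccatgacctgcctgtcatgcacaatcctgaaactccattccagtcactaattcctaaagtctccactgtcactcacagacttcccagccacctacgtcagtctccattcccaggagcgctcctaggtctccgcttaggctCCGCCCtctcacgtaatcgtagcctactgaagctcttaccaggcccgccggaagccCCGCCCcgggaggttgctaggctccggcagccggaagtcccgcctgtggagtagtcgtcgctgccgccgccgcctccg
Map1lc3b: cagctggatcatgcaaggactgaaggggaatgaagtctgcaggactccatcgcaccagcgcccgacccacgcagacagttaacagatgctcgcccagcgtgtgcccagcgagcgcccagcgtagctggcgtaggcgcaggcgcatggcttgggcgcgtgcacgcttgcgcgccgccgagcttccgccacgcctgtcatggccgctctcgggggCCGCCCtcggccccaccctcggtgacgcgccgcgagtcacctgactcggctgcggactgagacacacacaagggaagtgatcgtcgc
Ulk1: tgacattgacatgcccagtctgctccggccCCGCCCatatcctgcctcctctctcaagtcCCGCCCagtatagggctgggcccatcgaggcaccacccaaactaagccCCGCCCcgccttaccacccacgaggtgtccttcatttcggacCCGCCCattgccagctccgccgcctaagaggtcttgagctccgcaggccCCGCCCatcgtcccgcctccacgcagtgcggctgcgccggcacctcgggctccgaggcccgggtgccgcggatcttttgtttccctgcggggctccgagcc
The Gabarapl2 window held 2 GC boxes, the Map1lc3b window 1 and the Ulk1 window 5. A GC box on either strand was present in 22 of the 37 windows of members (59.5%), against 35.7% of all 32851 windows of the same length. The E-box CACGTG, the core of the element bound by the lysosomal regulators TFEB and TFE3, was present in 5 of the 37 windows (Atg14, Atg3, Atg5, Atg7 and Bnip3; 13.5%), against 7.15% of all windows. The RefSeq starts of these 5 E-box windows lay inside the annotated gene start, by 28013 bases for Atg7 and 2259 for Atg5. For Atg14, Atg3 and Bnip3 the distances were 2215, 444 and 18 bases. The motifs were searched separately, and a match is a description of letters only. Windows were found for 33 of the 42 members.

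Library totals lay between 13841253 and 38235015 counts, and levels are given as CPM, counts scaled to a common library size with TMM factors. Of 8 dopamine neuron markers, 8 were higher in young DAT;NuTRAP libraries (median log2 fold change 2.71), and of 6 GABA neuron markers, 6 were lower (median -3.20). Each model also held markers of the other neuron type. The summed dopamine markers had a median of 1844 CPM in young VGAT;NuTRAP and 12840 in young DAT;NuTRAP, and the GABA markers 4415 and 698. In young VGAT;NuTRAP, Slc6a3 averaged 745.5 CPM and Slc32a1 427.7, against 3250 and 96.8 in young DAT;NuTRAP. Markers of other cells were also higher in DAT;NuTRAP: 10 of 10 astrocyte markers, 10 of 10 oligodendrocyte markers and 8 of 8 endothelial markers, with median log2 fold changes of 1.53, 1.48 and 1.59. Of 10 microglia markers, 0 differed by edgeR's quasi-likelihood test. The labels divide the libraries into a first batch of 14 and a second batch of 23. The summed CPM of the 28 astrocyte, oligodendrocyte and endothelial markers was 2691 to 5088 in second-batch DAT;NuTRAP libraries and 1278 to 2638 in first-batch DAT;NuTRAP libraries, against 709 to 1857 and 690 to 1197 in second- and first-batch VGAT;NuTRAP libraries. Genes detected numbered 14323 to 18170 in second-batch DAT;NuTRAP libraries, against 19085 to 21051 in first-batch DAT;NuTRAP and 18485 to 21803 in VGAT;NuTRAP libraries. No marker was at 0 in all libraries of any group. The part of glial and endothelial cells, of RNA of the other neuron type and of the batches in the differences below was not tested. Only values within each batch and with a glial term are given.

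Per kilobase of canonical transcript, the ATG8 genes were among the most abundant members. Gabarapl1 averaged 712 CPM per kb in young DAT;NuTRAP libraries and 520 in young VGAT;NuTRAP libraries, and Map1lc3a 537 and 296. Map1lc3b averaged 223 and 306 CPM per kb, and Sqstm1, which encodes the receptor p62, 225 and 190. Their canonical transcripts have 889 and 3268 bases, but all annotated exons together span 7617 and 8203 bases. Levels per kb, and how these genes compare, depend on which length is used. At the other end stood Atg4a, one of 4 protease paralogs, at 0.571 and 0.538 CPM per kb. Atg4a had 0 counts in 3 of 19 DAT;NuTRAP libraries, and its log2 difference between the cell types had an interval too wide to read (-1.17 to 1.21).

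The first comparison asked which of these genes differ in ribosome-bound RNA between the DAT;NuTRAP and VGAT;NuTRAP pulldowns of young mice. In young DAT;NuTRAP mice, 11 members were higher than in young VGAT;NuTRAP mice and 16 were lower, at a Benjamini-Hochberg adjusted p below 0.05 by edgeR's quasi-likelihood test with batch as a term. Higher members made up 26.2% of the 42, against 24.3% of all 16898 genes tested, and lower members 38.1%, against 25.4%. These shares were not matched for abundance, as the median log2 CPM was 6.19 over the members and 3.86 over all genes. With a log2 fold change of at least 0.5 as well, 5 were higher and 8 lower, where the background was 16.4% and 16.7% of all genes. The median log2 fold change was -0.0955 over the members and 0.0102 over all genes, and the median absolute value 0.282 and 0.479. In bulk libraries of this kind, fewer cells of a type and less RNA per cell cannot be told apart.

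**Figure D1:**
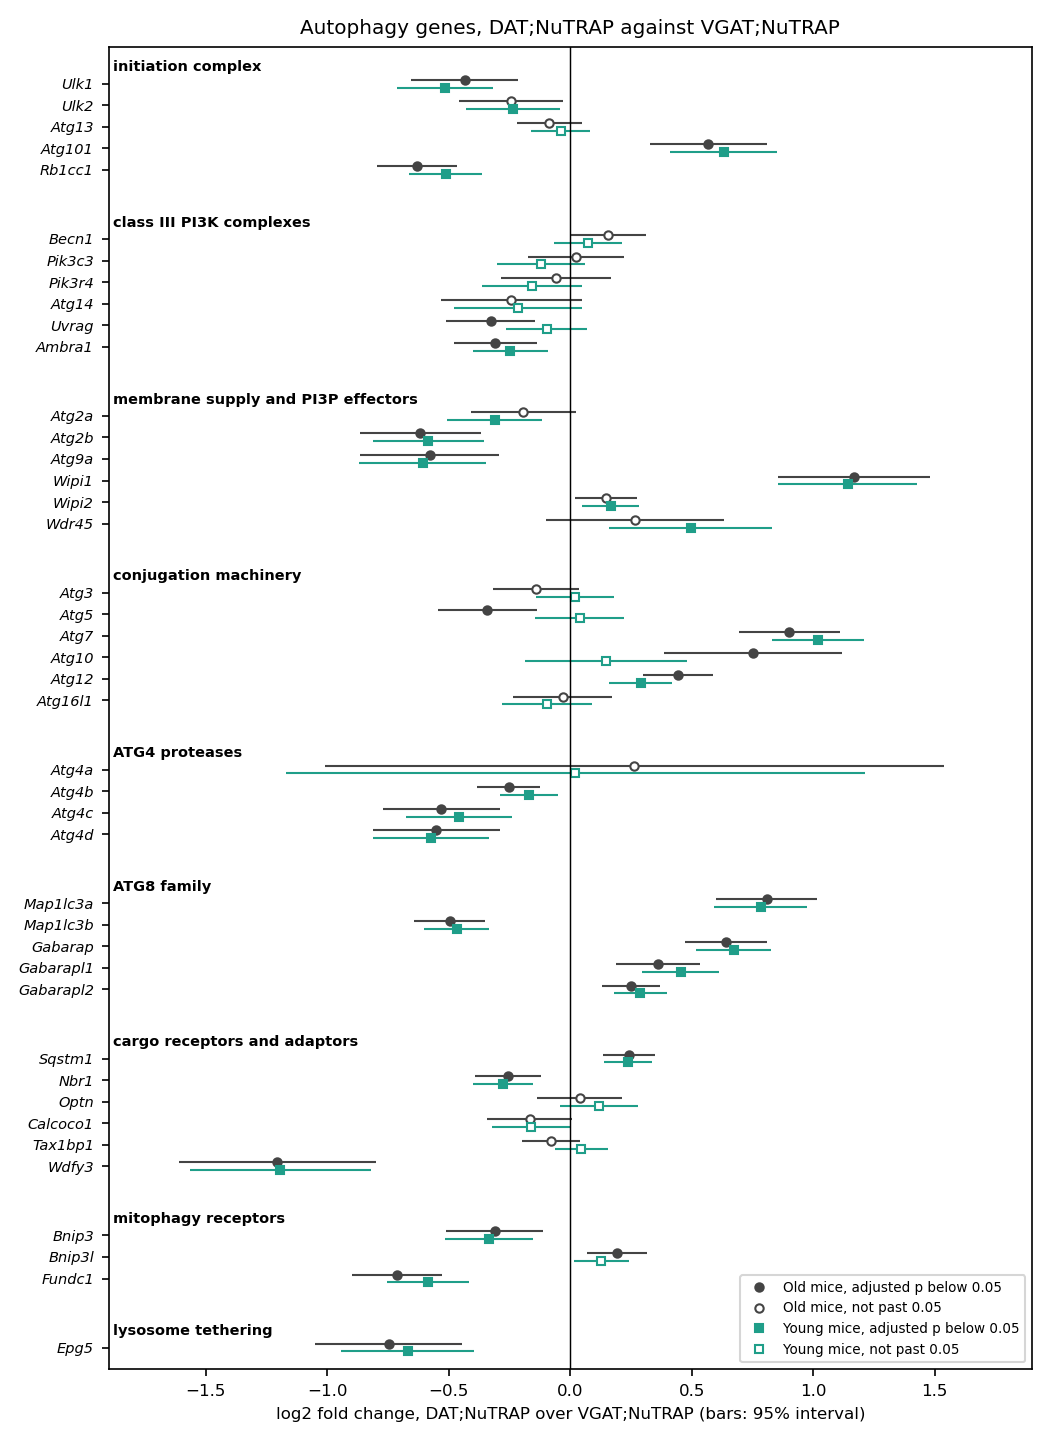
Log2 fold change of DAT;NuTRAP over VGAT;NuTRAP (x axis) for each of the 42 autophagy genes (rows, grouped by role), in young and in old mice, with 95% intervals; filled symbols have an adjusted p below 0.05. Wipi1 and Atg7 lie farthest to the right and Wdfy3 farthest to the left in both ages.

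Of the initiation complex, 1 of 5 members was higher in young DAT;NuTRAP libraries and 3 were lower, where 24.3% and 25.4% of all genes were. The same shares stand behind each count by role below. In old mice 1 of the 5 was higher and 2 were lower. All of them but Atg13 passed the test of cell type by batch given below. Rb1cc1 (FIP200, the scaffold of the complex, chr1:6276421-6377444 in GRCm39) ranged from 67.4 to 123 CPM in young DAT;NuTRAP libraries, with a median of 88.4, against 111 to 140 CPM in young VGAT;NuTRAP libraries, with a median of 126. The groups overlapped only at their edges, and the log2 fold change was -0.51 ± 0.0743 (SE, adjusted p = 2.14e-07, edgeR). Ulk1, the kinase, was lower by a similar amount (log2 fold change -0.52), and its paralog Ulk2 by less (-0.24). Leaving out any 1 of 11 young libraries (DAT;NuTRAP females 3, 4 and 5 and males 3 and 5, VGAT;NuTRAP females 4, 5 and 6 and males 2, 3 and 4) ended the call for Ulk2, with an adjusted p of up to 0.093 (edgeR). Atg101, which stabilises the partner protein ATG13, was higher (0.63, with 0.96 in the second batch alone and 0.05, not called, in the first), while Atg13 itself gave -0.04 and did not pass.

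Among the subunits and regulators of the class III kinase, 0 of 6 were higher and 1 was lower. That one was Ambra1, a scaffold that links the kinase to the cytoskeleton (-0.25). The catalytic subunit Pik3c3 gave -0.12, its regulatory subunit Pik3r4 -0.16 and the core partner Becn1 0.07. Atg14 and Uvrag, which define alternative forms of the complex, gave -0.22 and -0.10, and none of these passed.

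Genes that supply lipid or read the phosphatidylinositol 3-phosphate mark split evenly, with 3 of 6 higher and 3 lower. The PI3P-binding genes were the higher ones. Wipi1 (chr11:109464156-109502793 in GRCm39, minus strand, 13 exons), which binds that lipid, ranged from 15.2 to 34.8 CPM in young DAT;NuTRAP libraries (median 18.6), against 5.68 to 11.3 CPM in young VGAT;NuTRAP libraries (median 8.97). Every DAT;NuTRAP library was above every VGAT;NuTRAP library, and the log2 fold change was 1.14 ± 0.142 (SE, adjusted p = 6.97e-09, edgeR). Wipi2, the more abundant paralog, differed by 0.17, and without 1 library (DAT;NuTRAP young female 3) it no longer passed (adjusted p = 0.0555, edgeR). Wdr45, which in humans is mutated in a neurodegeneration with brain iron accumulation, was higher by 0.50 (0.72 in the second batch and 0.05, not called, in the first). The lipid transfer genes Atg2a (-0.31) and Atg2b (-0.58) and the scramblase gene Atg9a (-0.61) were lower, but none of them was called in the first batch alone (-0.23, -0.07 and -0.00). Exons of Wdr45 and Atg9a overlap another gene model on the same strand, so that their counts may hold reads of both. A further limit touches 22 of the 42 members, among them Atg13, Becn1, Atg4d, Sqstm1, Uvrag and Gabarapl1, whose exons overlap a gene on the opposite strand. The strand setting of the counting is not given, so that reads of those partners in their counts cannot be told apart.

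Of the conjugation enzymes, 2 of 6 were higher and 0 lower. Atg7 encodes the enzyme that activates both ATG12 and the ATG8 proteins (chr6:114620044-114837576 in GRCm39, 19 exons). Its level ranged from 45.4 to 76.6 CPM in young DAT;NuTRAP libraries (median 60.2), against 26.2 to 35.8 CPM in young VGAT;NuTRAP libraries (median 29.6). The groups did not overlap, and Atg7 had the smallest p of the members, with a log2 fold change of 1.02 ± 0.0931 (SE, adjusted p = 2.91e-12, edgeR). Atg12, the ubiquitin-like protein that is joined to ATG5, was higher by 0.29. Atg3 and Atg10, the E2-like enzymes, and Atg5 and Atg16l1, which form the complex that directs lipidation, gave log2 fold changes of 0.02, 0.15, 0.04 and -0.10 and did not pass.

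The proteases that prime ATG8 proteins and release them from membranes were lower or not called, with 0 of 4 higher and 3 lower. Atg4b, the broadly acting member, was lower by a small amount (log2 fold change -0.17), and Atg4c (-0.46) and Atg4d (-0.57) by more. Every young DAT;NuTRAP library was below every young VGAT;NuTRAP library for both Atg4c and Atg4d. In all, 3 members (Wipi1, Atg7 and Gabarap) lay above without overlap, where 5.5% of all genes did, and 3 (Atg4c, Atg4d and Wdfy3) below, where 7.6% did.

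The ATG8 family, the proteins that coat the autophagosome, was divided. Map1lc3a, Gabarap, Gabarapl1 and Gabarapl2 were higher in young DAT;NuTRAP libraries, and Map1lc3b was lower. Map1lc3a (chr2:155118217-155119998 in GRCm39) ranged from 229 to 648 CPM in young DAT;NuTRAP libraries (median 516), against 202 to 291 CPM in young VGAT;NuTRAP libraries (median 250). Some DAT;NuTRAP libraries fell within the VGAT;NuTRAP range, and the log2 fold change was 0.78 ± 0.0946 (SE, adjusted p = 3.99e-09, edgeR). Gabarap (chr11:69881888-69886109) did not overlap, at 173 to 272 CPM in young DAT;NuTRAP libraries (median 231), against 125 to 157 CPM in young VGAT;NuTRAP libraries (median 139), and its difference was 0.67 ± 0.0764 on the log2 scale (adjusted p = 9.01e-10, edgeR). Gabarapl1, the most abundant member, ranged from 1053 to 1637 CPM in young DAT;NuTRAP libraries (median 1262), against 858 to 1142 CPM in young VGAT;NuTRAP libraries (median 894). Its groups overlapped, and the log2 difference was 0.45 (adjusted p = 4.89e-06, edgeR), with 0.65 in the second batch and 0.11, not called, in the first. Gabarapl2 ranged from 233 to 280 CPM in young DAT;NuTRAP libraries (median 259), against 186 to 253 CPM in young VGAT;NuTRAP libraries (median 201), and differed by 0.29 (adjusted p = 2.07e-05, edgeR).

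Map1lc3b, which encodes the LC3 isoform most used to follow autophagosomes, went the other way. It ranged from 152 to 264 CPM in young DAT;NuTRAP libraries (median 186), against 194 to 339 CPM in young VGAT;NuTRAP libraries (median 270). The ranges overlapped, and the log2 fold change was -0.47 ± 0.0661 (SE, adjusted p = 1.26e-07, edgeR). Near-identical pseudogene copies of Map1lc3b and Gabarapl2 held at most 0.626% and 1.91% of the CPM of the gene in any library.

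**Figure D2:**
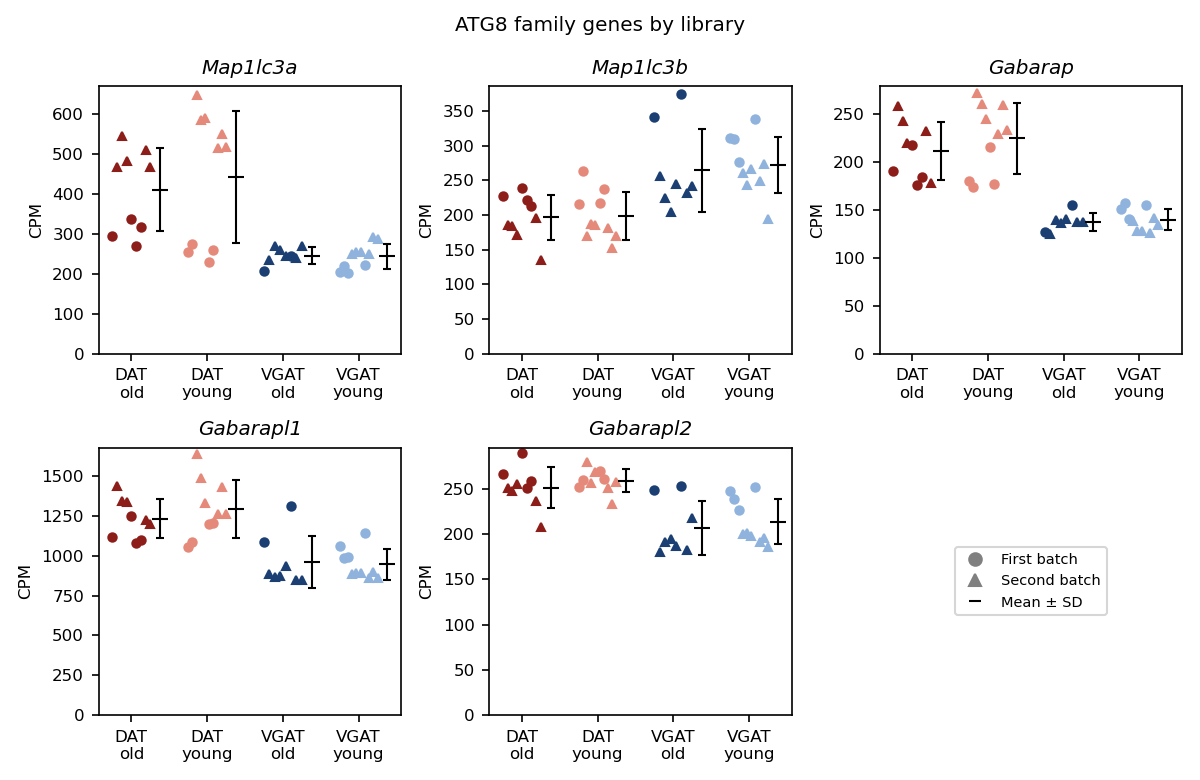
CPM (y axis, linear) of the 5 ATG8 family genes in each library, by cell type and age, with the mean and SD; round symbols mark the first batch and triangles the second. Map1lc3a in DAT;NuTRAP mice separates by batch, 229 to 338 CPM in the first and 467 to 648 CPM in the second.

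Cargo receptors were divided too, with 1 of 6 higher and 2 lower. Sqstm1, which binds ubiquitylated cargo, was higher by 0.24, and Nbr1, a receptor of related build, was lower by 0.28 (log2 fold change -0.28). Wdfy3 (ALFY), a scaffold for the clearance of protein aggregates encoded by 67 exons (chr5:101980804-102217820 in GRCm39, minus strand), ranged from 69.9 to 177 CPM in young DAT;NuTRAP libraries (median 87.0), against 188 to 297 CPM in young VGAT;NuTRAP libraries (median 244). The groups did not overlap, and its log2 fold change of -1.19 ± 0.183 was the lowest among the members in this comparison (SE, adjusted p = 1.18e-06, edgeR). Optn, Calcoco1 and Tax1bp1, receptors that act in mitophagy and ER turnover, gave 0.12, -0.16 and 0.05 and did not pass.

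Of the mitophagy receptors, which tie mitochondria to ATG8 proteins, 0 of 3 were higher and 2 were lower. Fundc1 (chrX:17386204-17438572 in GRCm39, minus strand), a receptor of hypoxic mitophagy, ranged from 44.9 to 105 CPM in young DAT;NuTRAP libraries (median 67.0), against 89.9 to 124 CPM in young VGAT;NuTRAP libraries (median 109). The groups overlapped, and the log2 fold change was -0.58 ± 0.0839 (SE, adjusted p = 1.72e-07, edgeR). Fundc1 also passed the test of cell type by batch given below (second minus first -0.37, adjusted p = 0.0119, edgeR). Bnip3 was lower (-0.34, with -0.57 in the second batch and -0.02, not called, in the first), and its paralog Bnip3l (NIX) gave 0.13 and did not pass (adjusted p = 0.0522, edgeR). Epg5, which tethers autophagosomes to lysosomes, was lower (-0.67, with -1.01 in the second batch and -0.18, not called, in the first).

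Old mice gave 11 members higher and 16 lower in DAT;NuTRAP than in VGAT;NuTRAP, against a background of 22.7% higher and 24.1% lower among all genes. The old and young mice are different animals, but the values come from 1 fit with a shared estimate of spread. Wipi1 ranged from 15.6 to 24.7 CPM in old DAT;NuTRAP libraries, against 4.87 to 10.7 CPM in old VGAT;NuTRAP libraries, and Atg7 from 41.1 to 71.9 CPM, against 28.9 to 34.6 CPM. Neither gene's groups overlapped, but the share of all genes without overlap was counted in young mice only. Their log2 fold changes were 1.17 and 0.90, beside 1.14 and 1.02 in young mice. Wdfy3 gave -1.21 in old mice, Fundc1 -0.71, Rb1cc1 -0.63, Map1lc3b -0.50, Map1lc3a 0.81 and Gabarap 0.64, with adjusted p between 1.26e-09 (Atg7) and 5.57e-06 (Wdfy3) over the 8 genes (edgeR). Ulk2, Atg2a, Wipi2 and Wdr45 passed in young mice only, and Uvrag (-0.33), Atg5 (-0.34), Atg10 (0.75) and Bnip3l (0.19) in old mice only. The difference between the ages was tested as an interaction and passed for none of the 42, where 0% of all 16898 genes passed. Of these 8, Atg10 and Atg5 had an unadjusted p below 0.05 in that test, where 467 of all 16898 genes did. DESeq2 and limma-voom also called 0 members.

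The cell type difference itself differed between batches. Wdfy3 had medians of 74.1 CPM in second-batch and 169 CPM in first-batch DAT;NuTRAP libraries of both ages, against 273 and 207 CPM in VGAT;NuTRAP. Map1lc3a had medians of 517 CPM in second-batch and 273 CPM in first-batch DAT;NuTRAP libraries, against 255 and 213 CPM in VGAT;NuTRAP. Both genes thus had a wider gap between the cell types in the second batch. In young mice the log2 fold change of Wdfy3 was -1.79 within the second batch and -0.33 within the first, that of Map1lc3a 1.08 and 0.26, that of Gabarap 0.89 and 0.30, and that of Atg9a -1.01 and -0.00. Values moved less for Atg7 (1.11 and 0.83) and Map1lc3b (-0.53 and -0.41), and Wipi1 gave 1.29 and 0.88.

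A test of cell type by batch, chosen after the data were seen, passed for 16 of 42 members (38.1%), against 25.7% of all 20018 genes in that fit. These shares were not matched for abundance either. Of the 16, 6 had a more positive difference in the second batch and 10 a more negative one. The smallest adjusted p were those of Map1lc3a (second minus first 0.67, adjusted p = 4.32e-09, edgeR), Gabarapl1 (0.59, 6.76e-09) and Wdfy3 (-1.34, 2.23e-07). Atg7, Map1lc3b and Wipi1 did not pass that test. Wipi1 nonetheless moved as much there (0.43, SE 0.212) as Gabarap (0.43, SE 0.0831), which passed. Of the 27 members called in young mice, 26 had the same sign within the first batch (13 called there) and 27 within the second (27 called). The 14 not called in the first batch were Ulk2, whose sign turned, Atg101, Ambra1, Atg2a, Atg2b, Atg9a, Wipi2, Wdr45, Atg4b, Gabarapl1, Gabarapl2, Sqstm1, Bnip3 and Epg5. Of the 27 called in old mice, 25 had the same sign in the first batch (12 called) and 27 in the second (25 called). The 15 not called in the first batch were Gabarapl1 and Bnip3, whose signs turned, Wdfy3 (-0.37, with -1.58 in the second batch), Ulk1, Atg101, Uvrag, Ambra1, Atg2b, Atg9a, Atg10, Atg4b, Atg4c, Gabarapl2, Sqstm1 and Epg5.

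Transcript length moved with the cell type difference. Over the 42 members, the Spearman correlation of canonical transcript length with the young log2 fold change was -0.613, beside -0.269 over 16833 genes. These are correlations across genes of the same libraries, and genes are not replicates. Medians over all genes fell with length, 0.33 for transcripts under 1 kb and -0.47 for those over 8 kb, and the 3 members over 8 kb had a median of -0.67. Within the second batch the correlation over members was -0.615 (-0.322 over all genes), and within the first -0.392 (-0.046). With a smooth trend on length taken out of each library, an alternative added after the data were seen, 15 of the 27 calls in young mice were kept and 12 were not. Those kept included Atg7 (1.08), Wipi1 (0.98), Map1lc3a (0.49), Gabarap (0.45), Map1lc3b (-0.75), Fundc1 (-0.76) and Wdfy3 (-0.59). Rb1cc1, Epg5, Atg2a, Atg2b, Atg4b, Atg4c, Atg4d, Nbr1, Ambra1, Ulk2, Gabarapl2 and Wdr45 were not called in that fit, and Atg13, Becn1 and Tax1bp1 were gained, so that 12 members were higher and 6 lower there, against 11 and 16 without the trend.

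**Figure D3:**
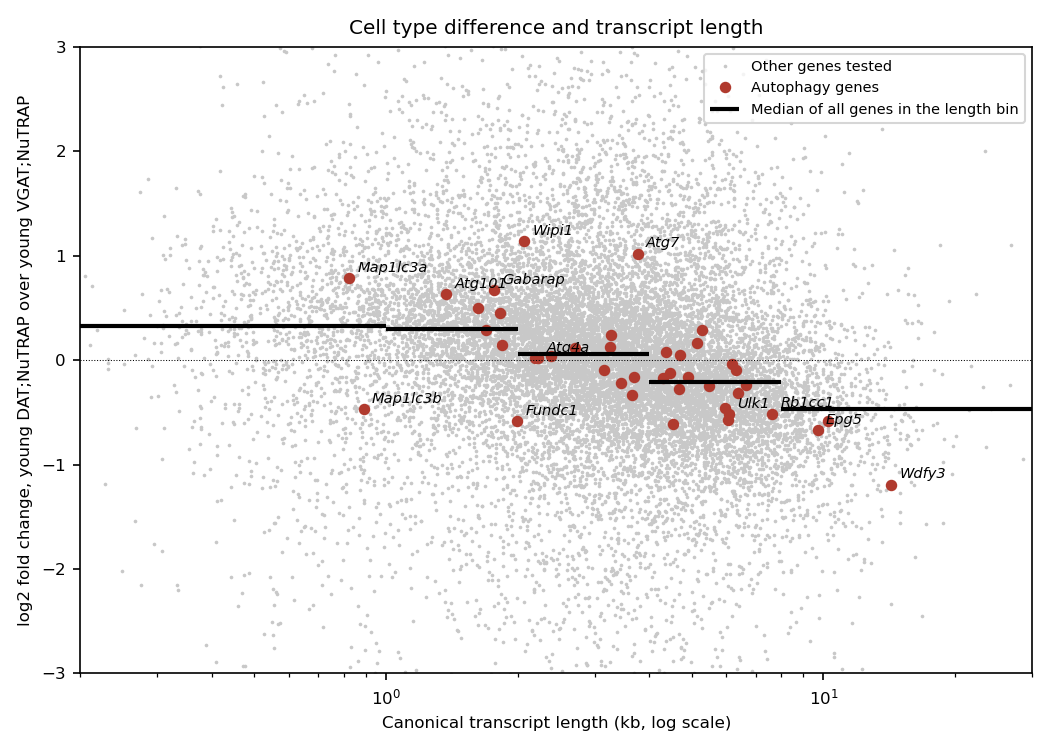
Log2 fold change of young DAT;NuTRAP over young VGAT;NuTRAP (y axis) against canonical transcript length (x axis, kb, log scale), with autophagy genes in red, other genes in grey and black lines for the median of all genes in each length bin; 308 genes and no autophagy gene lie outside the axes. The bin medians fall from left to right, and the longer autophagy genes lie mostly below 0.

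With the log2 summed CPM of the 28 astrocyte, oligodendrocyte and endothelial markers as a further term, also added after the data were seen, 3 of the 27 calls in young mice were kept. These were Atg7 (log2 fold change 1.08, adjusted p = 5.46e-06, edgeR), Map1lc3b (-0.49, 0.00293) and Gabarap (0.36, 0.0486). In old mice 3 of 27 were kept (Atg7, Atg12 and Map1lc3b). That sum is itself higher in DAT;NuTRAP libraries, so that this term and the cell type are confounded.

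Ratios of paralogs within a library do not depend on how libraries are scaled to one another. The log2 ratio of Map1lc3a to Map1lc3b averaged 1.07 ± 0.82 in young DAT;NuTRAP libraries and -0.16 ± 0.38 in young VGAT;NuTRAP libraries (SD, n = 10 each). With batch as a term the difference was 1.23 (two-sided permutation test within batches, p = 5e-05, adjusted p = 0.0006 over 24 tests). In old mice the ratio averaged 1.03 in DAT;NuTRAP and -0.08 in VGAT;NuTRAP, a difference of 1.30 (permutation adjusted p = 0.00077). Labels can be arranged within batches in 6930 ways in old mice and 64680 in young mice, so that p has a floor. Old Map1lc3a to Map1lc3b, Wipi1 to Wipi2 and Bnip3 to Bnip3l shared 1 value (permutation p = 0.00016), which does not rank their strength. The libraries of both models spanned a wide range, 0.06 to 1.93 in young DAT;NuTRAP, against -0.62 to 0.56 in young VGAT;NuTRAP. Within the young mice of the second batch the difference was 1.60, and within those of the first batch 0.67.

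The log2 ratio of Wipi1 to Wipi2 averaged -3.05 ± 0.38 in young DAT;NuTRAP libraries and -4.03 ± 0.29 in young VGAT;NuTRAP libraries (SD, n = 10 each), a difference of 0.98 (permutation adjusted p = 0.0006), with 1.04 in old mice (0.00077). Bnip3 to Bnip3l was lower in DAT;NuTRAP, with a difference of -0.46 in young mice (permutation adjusted p = 0.0026) and -0.52 in old mice (0.00077). Ulk1 to Ulk2 was lower as well, by differences of -0.28 (0.03) in young and -0.26 (0.028) in old mice. In young mice it no longer passed without any 1 of 5 libraries (DAT;NuTRAP young female 1 or 3, VGAT;NuTRAP young female 2 or 3 or young male 2), with values of -0.23 to -0.26. Gabarapl1 to Gabarapl2 was higher in young mice by 0.16 (permutation adjusted p = 0.011) and gave 0.12 in old mice, which did not pass (0.22). Atg2a to Atg2b gave 0.27 and 0.37 and did not pass (0.18 and 0.054). None of the ratios passed with age in either model (smallest permutation adjusted p = 0.46).

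**Figure D4:**
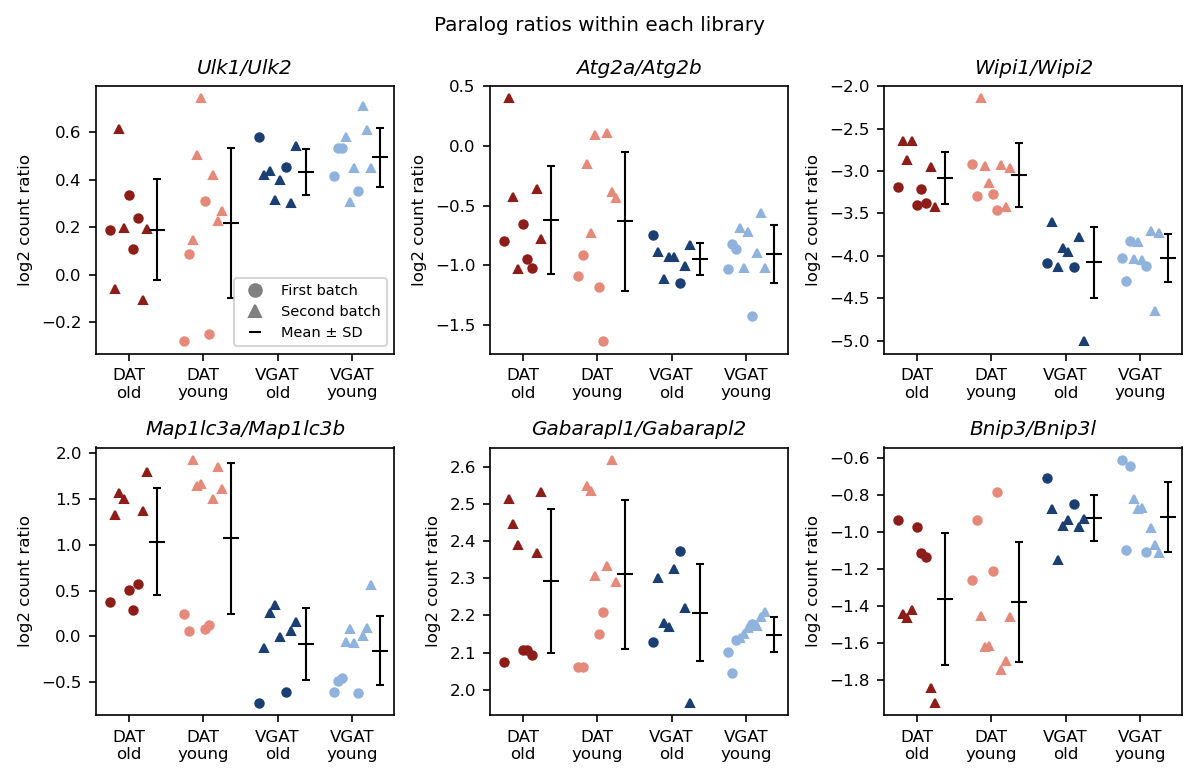
Log2 ratio of CPM of 6 paralog pairs (y axis) in each library, by cell type and age, with the mean and SD; round symbols mark the first batch and triangles the second. Map1lc3a to Map1lc3b and Wipi1 to Wipi2 are higher in DAT;NuTRAP than in VGAT;NuTRAP, with no shift between old and young that passed the test.

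The next comparison asked whether these genes change with natural aging. In old against young DAT;NuTRAP mice, 0 of 42 members passed by edgeR's quasi-likelihood test, where 0.00672% of 14889 genes did (1 gene). An unadjusted p below 0.05 was found for 2 of the 42 members and 786 of the 14889 genes. For VGAT;NuTRAP mice, 0 of 42 passed, where 0.0256% of 15607 genes did (4 genes), and 4 members and 934 of the 15607 genes had an unadjusted p below 0.05. DESeq2 and limma-voom likewise called 0 members in both models. The median log2 fold change of old over young was -0.00715 over the members in DAT;NuTRAP (0.00252 over all genes) and 0.00732 in VGAT;NuTRAP (-0.000953 over all genes).

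The intervals show how precisely each age difference was estimated. They were taken gene by gene and not adjusted over the 42 members. In DAT;NuTRAP, 38 of 42 members had a 95% interval within 0.5 of 0 on the log2 scale (1.41-fold), and 19 within 0.25. In VGAT;NuTRAP these counts were 40 and 38, and the median standard error was 0.0532, against 0.0977 in DAT;NuTRAP. The ATG8 genes had log2 fold changes between -0.07 (Gabarap) and -0.01 (Map1lc3a) in DAT;NuTRAP and between -0.02 (Map1lc3a) and 0.06 (Gabarapl1) in VGAT;NuTRAP.

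**Figure D5:**
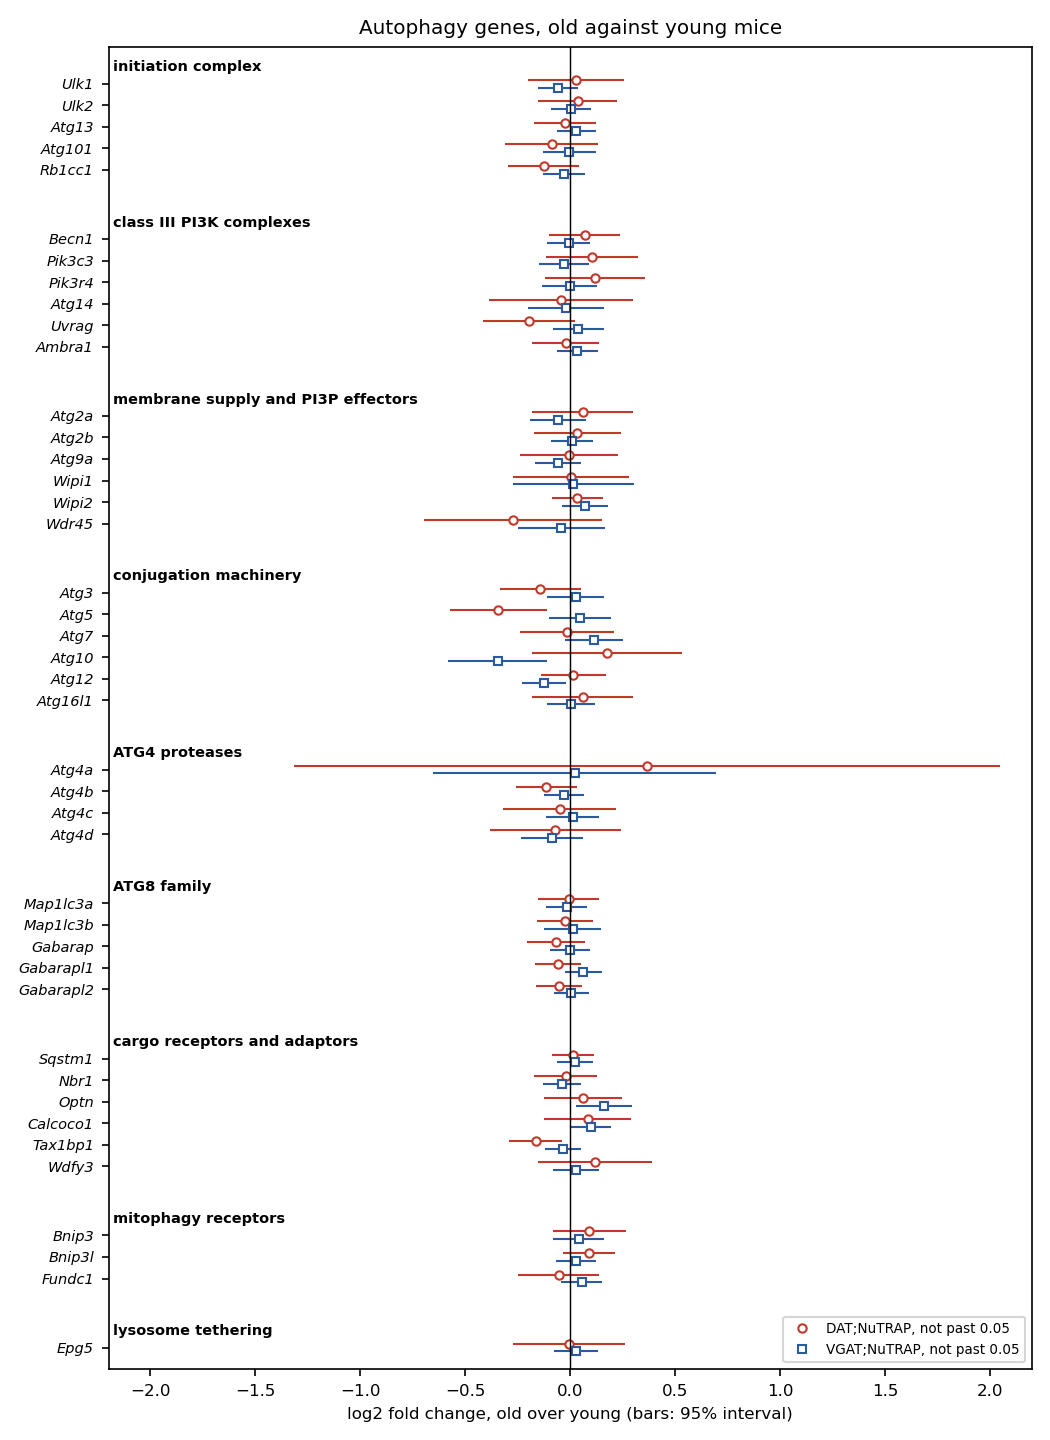
Log2 fold change of old over young (x axis) for each of the 42 autophagy genes (rows, grouped by role) in DAT;NuTRAP and VGAT;NuTRAP mice, with 95% intervals; no symbol is filled, since none had an adjusted p below 0.05. Intervals are wider in DAT;NuTRAP, and that of Atg4a is the widest.

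Among dopamine neuron libraries, the smallest unadjusted p with age were those of Atg5, Tax1bp1 and Uvrag. Atg5 ranged from 19.6 to 37.03 CPM in old DAT;NuTRAP libraries (median 24.7), against 26.1 to 38.5 CPM in young DAT;NuTRAP libraries (median 33.1). The ranges overlapped, and the log2 fold change was -0.34 ± 0.114 (SE, adjusted p = 0.87, edgeR). Tax1bp1 ranged from 191 to 248 CPM in old DAT;NuTRAP libraries (median 231), against 191 to 302 CPM in young DAT;NuTRAP libraries (median 259), with -0.16 ± 0.0617 (SE, adjusted p = 0.931, edgeR). Uvrag ranged from 22.3 to 41.4 CPM in old DAT;NuTRAP libraries (median 35.8), against 31.6 to 44.9 CPM in young DAT;NuTRAP libraries (median 39.6), with -0.20 ± 0.107 (SE, adjusted p = 0.97, edgeR). None of the 3 passed.

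Among GABA neuron libraries they were Atg10, Optn and Atg12. Atg10 ranged from 6.45 to 13.7 CPM in old VGAT;NuTRAP libraries (median 10.4), against 9.34 to 17.1 CPM in young VGAT;NuTRAP libraries (median 13.7), with a log2 fold change of -0.35 ± 0.114 (SE, adjusted p = 0.683, edgeR). Optn ranged from 41.3 to 61.7 CPM in old VGAT;NuTRAP libraries (median 48.6), against 37.7 to 59.7 CPM in young VGAT;NuTRAP libraries (median 43.2), with 0.16 ± 0.0653 (SE, adjusted p = 0.784, edgeR). Atg12 ranged from 62.4 to 77.1 CPM in old VGAT;NuTRAP libraries (median 69.8), against 69.4 to 90.5 CPM in young VGAT;NuTRAP libraries (median 76.6), with -0.13 ± 0.0517 (SE, adjusted p = 0.787, edgeR). All 3 pairs of ranges overlapped, and none passed.

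Whether the age difference itself differed between the cell types was tested across all 37 libraries. Atg5 had the smallest p of the members, with a DAT;NuTRAP minus VGAT;NuTRAP difference of -0.38 ± 0.136 (SE, adjusted p = 1, edgeR). Its log2 fold change was -0.34 in DAT;NuTRAP and 0.05 in VGAT;NuTRAP. Both age comparisons enter that test, so that it is not a further observation.

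Within each sex, 0 of 42 members passed with age by edgeR. Over all genes, 0% passed in DAT;NuTRAP females and 0% in DAT;NuTRAP males, and 0.032% in VGAT;NuTRAP females and 0.0315% in VGAT;NuTRAP males. Members with an unadjusted p below 0.05 numbered 3 in DAT;NuTRAP females, 2 in DAT;NuTRAP males, 3 in VGAT;NuTRAP females and 2 in VGAT;NuTRAP males. Over all genes, in the same order, the counts were 601 of 14839, 868 of 15789, 873 of 15617 and 813 of 15875. The interaction of age and sex passed for 0 members and 0% of all genes in either model. Its unadjusted p was below 0.05 for 2 members and 703 of 16560 genes in DAT;NuTRAP. In VGAT;NuTRAP it was below 0.05 for 5 members and 875 of 17185 genes. DESeq2 and limma-voom also called 0 members in these 6 comparisons. The smallest p in DAT;NuTRAP was that of Bnip3, with a male minus female difference of -0.47 ± 0.155 (SE, adjusted p = 1, edgeR), and in VGAT;NuTRAP that of Atg3, with 0.35 ± 0.119 (SE, adjusted p = 0.967, edgeR).

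Genes around the core machinery were counted in the same young comparison of DAT;NuTRAP with VGAT;NuTRAP. Over all genes tested there, 24.3% were higher and 25.4% lower. The genes named are those with the smallest p in each list, whichever direction they took. Values within each batch and with the length and glial terms were not taken for these lists. Of 19 genes of nutrient and energy sensing, which restrain or release the ULK complex, 3 were higher and 8 lower, among them Rragb (-0.52) and Prkab2 (-0.65). Of 6 transcription factors of lysosomal and autophagy genes, 0 were higher and 2 lower, Mitf (-1.58) and Foxo3 (-0.45). Of 8 genes of PINK1 and Parkin mitophagy, 3 were higher and 3 lower, with Usp15 (-0.71) and Tbk1 (-0.58) at the smallest p. Among 13 genes of fusion with the lysosome, 4 were higher and 3 lower, including the HOPS tether genes Vps39 (-0.46) and Vps41 (-0.35). Of 6 receptors of ER turnover, 3 were higher and 0 lower, including Retreg1 (0.41) and Tex264 (0.53). Of 10 other core and regulatory factors, 0 were higher and 5 lower, including Rubcn (-0.48) and Vmp1 (-0.42). None of these genes passed with age in either model by edgeR.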

How the data were processed

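Polysomal RNA from 600 µm ventral midbrain slices was sequenced as poly-A libraries. Per the paper's methods, the authors mapped reads to mm39 (STAR 2.7.10b) and used featureCounts for gene counts; its version, strand setting and annotation are not given in the sources used here. The deposited tables, 1 for each model, hold raw counts for 57180 genes, before the authors removed low counts and glial genes and corrected for batch. No column was left out, and depth limits the precision of the rarest member.

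Groups and batches came from the labels. The tables were joined on gene identifier and fitted in R 4.3.3 with edgeR 4.0.16 (normalised by TMM, filterByExpr with a minimum count of 10, robust quasi-likelihood fit with batch, Benjamini-Hochberg over all genes tested, called at an adjusted p below 0.05), with all 37 libraries for the cell types and the libraries of 1 model for age. Fits were tested on simulated data. Alternatives were DESeq2 1.42.0, limma-voom (limma 3.58.1), RLE factors, other filters, single batches, a sex or no batch term, left-out libraries and the replicate number as a block. Gene models and transcript lengths came from GRCm39. No library duplicated another of its condition (70 pairs, lowest chi-square per degree of freedom 5.46). Paralog ratios were tested with 100000 permutations within batches.

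All 42 members were named by role, with values by library for up to 4 members in each direction with the smallest p between young cell types, up to 3 with age in each model, the first in age by cell type and the ATG8 family, and up to 2 genes per neighbouring list. The members, lists and rules were chosen with earlier results of these data known.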

Additional observations from a re-analysis of the deposited data

Results flagged for a closer look

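Some libraries stood apart from the rest of their group: in 11 of 192 groups of values (5.73%), the highest or lowest library was farther from its neighbour than Dixon's 95% critical value allows for the group's range, and chance gives about 1 in 20. Wipi1 was 34.8 CPM in DAT;NuTRAP young female 3, the highest of 10, and 4.87 CPM in VGAT;NuTRAP old male 3, the lowest of 8. The log2 ratio of Wipi1 to Wipi2 was -2.14 and -5.01 in those 2 libraries. Ulk1 was 47.7 CPM in DAT;NuTRAP young female 3, the lowest of 10, and 119.5 CPM in VGAT;NuTRAP old female 1, the highest of 8. Atg13 was 136.1 CPM in DAT;NuTRAP young female 5, the highest of 10, and 105.3 CPM in VGAT;NuTRAP young female 5, the lowest of 10. In VGAT;NuTRAP young male 1, Wipi2 was 179.2 CPM and Atg16l1 47.7 CPM, each the highest of 10. The log2 ratio of Atg2a to Atg2b was 0.40 in DAT;NuTRAP old female 2, the highest of 9. That library and DAT;NuTRAP young female 5 had the fewest genes detected (14323 and 14798). Without both, 26 of the 27 cell type calls in young mice were kept and 1 was not (Ulk2), and 27 of 27 in old mice were kept.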

How the results depend on the processing

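Counts of members called between the cell types stayed within 1.5 times under RLE factors, DESeq2, limma-voom, other filters, no batch term, a sex term, the second batch alone and each library left out. The first batch alone and the glial term gave fewer in both directions and the length trend fewer lower and 1 more higher, and the cause was not tested. In young mice the first batch alone gave 5 higher and 9 lower (2 and 1 by at least 0.5), the length trend 12 higher and 6 lower (2 higher and 3 lower by at least 0.5), and the glial term 2 higher and 1 lower (1 and 0 by at least 0.5). In old mice the first batch gave 6 and 6 (2 and 4), the length trend 12 higher and 9 lower (3 lower by at least 0.5), and the glial term 2 and 1 (1 and 1). Among members called in either fit, log2 fold changes turned sign in young mice for Ulk2 (0.14 first batch, 0.075 length trend, 0.11 glial term) and Atg13 (0.25, length trend), and with the glial term for Ambra1 (0.17), Atg9a (0.024), Atg4c (0.0081), Bnip3 (0.073) and Epg5 (0.0199). In old mice they turned with the glial term for Ulk1 (0.039), Ambra1 (0.15), Atg2b (0.026), Atg9a (0.11), Gabarapl1 (-0.095), Bnip3 (0.14) and Epg5 (0.022), and in the first batch for Gabarapl1 (-0.086) and Bnip3 (0.027). Members called in neither fit also turned: 4 in the first batch, 7 with the length trend, 6 with the glial term and 1 (Atg4a) in the second batch in young mice, and 5, 5, 6 and 0 in old mice.

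Paralog ratios within the first batch, which holds 4 DAT;NuTRAP and 4 VGAT;NuTRAP young and 4 and 2 old libraries, could not pass whatever their values (smallest p 0.0286 and 0.0667, smallest adjusted p 0.0571 by permutation), so that their p says nothing on stability. Their values were young and old Ulk1 to Ulk2 -0.49 and -0.30, Wipi1 to Wipi2 0.83 and 0.81, Map1lc3a to Map1lc3b 0.67 and 1.10 (1.105), Bnip3 to Bnip3l -0.18 and -0.26, Gabarapl1 to Gabarapl2 0.0068 and -0.16, and Atg2a to Atg2b -0.17 and 0.095. Within the second batch Ulk1 to Ulk2 gave -0.13 and -0.24 and did not pass, while young Atg2a to Atg2b (0.57) and old Gabarapl1 to Gabarapl2 (0.26) did, each with the opposite sign to its first-batch value. With each library left out, Ulk1 to Ulk2 lay between -0.33 (-0.325) and -0.23 in young and between -0.33 and -0.21 in old mice (not passing without VGAT;NuTRAP old female 1), Atg2a to Atg2b between 0.21 (0.215) and 0.35 (passing without DAT;NuTRAP young male 2) and between 0.23 and 0.46 (passing without DAT;NuTRAP old female 4 or male 2, 3 or 5 or VGAT;NuTRAP old female 1), and Gabarapl1 to Gabarapl2 between 0.083 and 0.19 in old mice (passing without VGAT;NuTRAP old male 1) and between 0.0196 and 0.0898 with age in VGAT;NuTRAP (passing without VGAT;NuTRAP old male 3).

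For age, 0 of 1720 single-member results under an alternative passed. With the replicate number as a block, 0 members passed in either model, and 1 and 7 genes of all did (1 and 4 without the block). Correlations of same-numbered libraries ran from -0.271 to 0.431 over 9 pairs in DAT;NuTRAP and from -0.162 to 0.521 over 8 pairs in VGAT;NuTRAP. Of these pairs, 5 of 9 and 3 of 8 lay above 0.1, and 1 library in each model correlated best with its own number. Batch was not taken out of these correlations, and 7 of 9 and 6 of 8 pairs shared a batch. They therefore cannot decide whether the numbers pair mice. Over all genes, age calls ranged from 0 (glial term) to 12 (DESeq2) in DAT;NuTRAP and from 0 (first batch) to 52 (second batch) in VGAT;NuTRAP, where DESeq2 gave 23, no filter 9, a sex term 8, leaving out mice of other ages 10, no batch term 1 and the glial term 2. Between young cell types, 2639 genes were higher and 2734 lower in the first batch alone and 1376 and 1359 with the glial term. With limma-voom the median over all genes was -0.115 (0.0102 with edgeR).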
